A study of Mus musculus with 8 samples.

Results

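The ligands and receptors of the vascular endothelial growth factor (VEGF) and angiopoietin systems were measured in mouse embryonic fibroblasts on expression arrays. They were taken as the probe sets whose platform annotation gave exactly 1 symbol among Vegfa, Vegfb, Vegfc, Pgf, Flt1, Kdr, Tek, Angpt1, Angpt2 and Nrp1. This gave 21 probe sets of 10 genes, out of 45037 tested probe sets that named 18193 genes. Within these 10 genes, a probe set was taken by its annotated name and by no measured value.

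The fibroblasts were of the C57BL/6 strain. Cells of all 4 groups lacked Stat5, and all had been given a mutant STAT5 gene by retroviral infection. In the EA groups the labels describe the mutant as a change from EE to AA in the binding domain. In the YF groups the mutant carried Y694F, a change at the site where STAT5 is phosphorylated. Growth hormone was given for 120 minutes in the EA with hormone and YF with hormone groups, and the EA and YF groups were left unstimulated. There were 2 arrays in each group. No group carried normal STAT5, and none was left without a STAT5 vector, so each EA and YF difference sets cells with one mutant against cells with the other. Stat5a mRNA itself differed between them: its brightest probe set ranged from 4.28 to 5.36 over the EA arrays and from 7.82 to 8.51 over the YF arrays, an averaged EA minus YF difference of -3.20 (SE 0.22, limma adjusted p = 0.00094). Whether that probe set reads the introduced construct was not analysed here. Ghr, the growth hormone receptor, gave -0.27 (SE 0.03, adjusted p = 0.0042). The part of either in the differences below was not tested. These are biological duplicates per the series text, but nothing in the labels says that they came from separate cultures or infections. The p-values therefore measure only the spread between these arrays, and a difference between separately infected populations cannot be told apart from one between the mutants.

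VEGF ligands are secreted proteins that bind receptor tyrosine kinases on the cell surface. Flt1 encodes a receptor with high affinity and weak kinase activity that binds VEGF-A, VEGF-B and placental growth factor, and it also gives rise to a soluble form that holds ligand away from other receptors. Kdr encodes the main signalling receptor for VEGF-A in endothelial cells. Neuropilin, encoded by Nrp1, has a short cytoplasmic tail without kinase activity and serves as a co-receptor for VEGF and for secreted semaphorins. Angpt1 and Angpt2 encode ligands of the receptor kinase Tek, where Angpt1 is an agonist and Angpt2 can act against it, depending on the setting. The receptors are best known from endothelial cells, while fibroblasts and other perivascular cells are known as sources of the ligands.

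Expression is given on the log2 scale, where a difference of 1 is a doubling. The values formed a dense low group, bounded here at 4, which held 24773 probe sets (55.0%) by their mean. No detection calls were used. The size of a difference with a side in the low group is uncertain. Of the probe sets described here, 14 had a mean of at least 4 and 7 lay below, and Kdr and Pgf were measured only below it. Tests compared groups within a probe set. Brightness across probe sets served only to choose a probe set per gene, to set the low bound and to describe marker genes. A difference was called where the limma adjusted p was under 0.05, and n is 2 arrays per group throughout.

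The 2 arrays of each group correlated at 0.996 to 0.998, across probe sets, which are not independent. On the second principal component, with 12.6% of the variance, YF with hormone replicate 1 scored 55.8, against 3.28 for its replicate and -25.8 and -32.6 for unstimulated YF. Probe sets of the fibroblast genes Col1a1, Col1a2, Col3a1, Vim and Fn1 were among the brightest, which does not measure abundance between genes. Of 19 endothelial markers, 15 had every group mean below 4, including Pecam1 (1.75 to 1.83 over the arrays) and Cdh5 (2.21 to 2.35). The mean endothelial marker value was 2.62 to 2.67 over EA arrays and 2.83 to 2.88 over YF arrays. By brightest probe set, only Ecscr among these markers was called between EA and YF (-1.90, SE 0.34, averaged over treatments, adjusted p = 0.019). Its EA means and its unstimulated YF mean lay in the low group. A dimmer Eng probe set was also called, lower in EA (-1.22, SE 0.19, adjusted p = 0.011). The brightest Eng and Egfl7 probe sets, with means of 6.11 and 6.16, gave -0.55 and -0.43 and were not called (adjusted p = 0.17 and 0.10). Pericyte and smooth muscle markers moved with the mutant in both directions, with 3 of 12 higher in EA, such as Mcam (1.68, SE 0.05), and 4 lower, such as Cnn1 (-4.82, SE 0.19), Myh11 (-4.47, SE 0.14) and Rgs5 (-4.19, SE 0.48). The mean of that list was 7.82 to 7.94 over EA arrays and 8.65 to 8.87 over YF arrays. For each marker count in this paragraph, the share over all genes by brightest probe set, averaged over treatments, was 22.9% called. Of 11 measured fibroblast markers, 6 were lower in EA, such as Thy1 (-4.96, SE 0.09), Dcn (-4.45, SE 0.21) and Lum (-0.92, SE 0.19), and 1 was higher (Postn, 0.17, SE 0.03). The EA means of Myh11 and Dcn lay in the low group, and for Lum the EA and YF means both did. The mean of the fibroblast list was 11.35 to 11.49 over EA arrays and 12.33 to 12.49 over YF arrays. Cd68 was higher in EA (3.15, SE 0.15) as 1 of 10 macrophage and blood cell markers. Krt19 (5.20, SE 0.28) and Krt18 (0.39, SE 0.09) were higher as 2 of 6 epithelial markers. Every group mean of Krt18 lay in the low group, and Ptprc, Adgre1, Epcam and Cdh1 lay there on every array. The receptor mRNAs described below differ along the same EA and YF division, and the part of cell makeup in them was not tested. In such bulk RNA, fewer cells of a type and less RNA per cell cannot be told apart.

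The brightest probe sets of the 10 genes fell into 3 patterns. Vegfb, Vegfc, Angpt1, Angpt2 and Nrp1 were higher in EA than in YF cells, Flt1 and Tek were lower, and Vegfa, Pgf and Kdr were not called. Averaged over treatments, 11 of 21 probe sets (52.4%) were called, against 16.5% of all probe sets. Of these, 8 were higher in EA (8.17% of all) and 3 lower (8.38% of all). By brightest probe set, 7 of 10 genes were called, against 22.9% of all genes. The 10 genes were chosen with earlier results of these data known, so these shares describe them and do not test the set. Bright probe sets were called more often throughout, with 33.8% of those with a mean of at least 4. The median difference of the 21 probe sets was 0.57 and the median size 0.68, against 0.02 and 0.06 over all probe sets. A larger share of all probe sets than of the 21 lay in the low group. Among probe sets with a mean of at least 4, the median size was 0.96 for 14 of the 21 and 0.27 for all. The arrays of EA and YF did not overlap on 12 of the 21, against 18.6% of all probe sets.

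**Figure D1:**
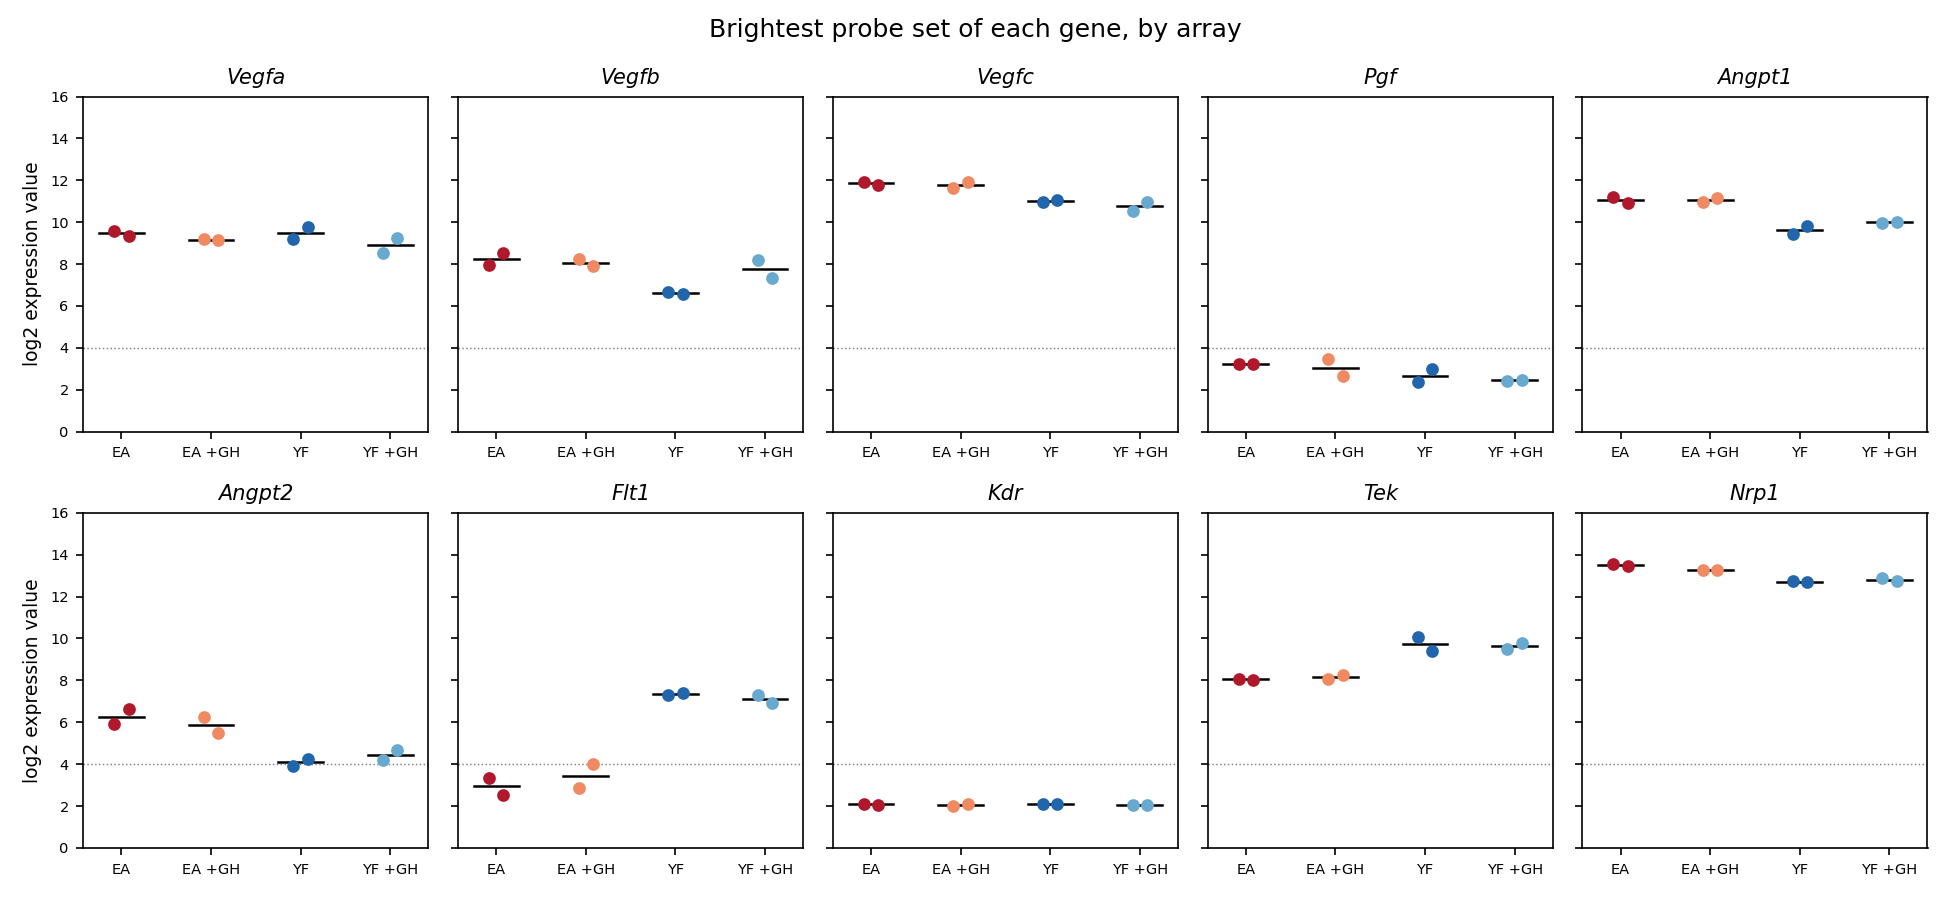
The vertical axis gives the log2 expression value of each gene's brightest probe set and the horizontal axis the 4 groups (+GH, with growth hormone). Points are arrays, bars are group means, and the dotted line marks the low-group bound of 4. Flt1 and Tek sit higher in YF cells, Angpt1, Angpt2, Vegfc and Nrp1 sit higher in EA cells, and Kdr lies near 2.1 on every array.

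Promoter sequences of members that moved in opposite directions are shown first, each as the 250 bases before the annotated transcription start, 5′ to 3′ on the gene's strand, from RefSeq on GRCm38.p6. The table held 10 such windows for 8 of the 10 genes, and Angpt1 and Angpt2 were not among them. Flt1 (chr5:147726012-147726261, minus strand) and Tek (chr4:94739039-94739288, plus strand) were lower in EA cells, and Nrp1 (chr8:128358823-128359072, plus strand) was higher. Capitals mark the matches described next.
Flt1: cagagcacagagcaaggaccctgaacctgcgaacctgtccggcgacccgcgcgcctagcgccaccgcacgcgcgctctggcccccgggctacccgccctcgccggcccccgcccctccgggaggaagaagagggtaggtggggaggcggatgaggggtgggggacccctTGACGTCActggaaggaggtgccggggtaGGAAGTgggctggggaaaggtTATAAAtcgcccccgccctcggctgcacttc
Tek: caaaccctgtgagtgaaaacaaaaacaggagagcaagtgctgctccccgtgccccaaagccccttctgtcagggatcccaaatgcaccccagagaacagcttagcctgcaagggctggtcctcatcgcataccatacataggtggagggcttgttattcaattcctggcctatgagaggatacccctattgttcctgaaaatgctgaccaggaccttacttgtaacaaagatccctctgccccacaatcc
Nrp1: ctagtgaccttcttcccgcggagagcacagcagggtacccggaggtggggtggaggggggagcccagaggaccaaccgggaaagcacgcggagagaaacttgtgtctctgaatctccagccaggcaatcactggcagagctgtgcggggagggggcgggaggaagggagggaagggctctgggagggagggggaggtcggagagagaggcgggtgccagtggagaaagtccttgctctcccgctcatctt

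The STAT motif TTCNNNGAA was in none of the 10 windows of the 8 genes, and in 7.02% of 32851 promoter windows of the same length. The Flt1 window held 3 other motifs, and all were searched on both strands. TGACGTCA, the cyclic AMP response element, began 81 bases before the start and was in 1.55% of all windows. GGAAGT, an ETS-type core, began 52 bases before the start (19.7% of windows), and TATAAA began 31 bases before it (12.4%). These 3 motifs were chosen after the sequences were seen. The hypoxia core ACGTG was in 1 Vegfa window (chr17:46025164-46025413, minus strand), on the reverse strand from 211 bases before that annotated start. The bases around this match read as codons of the VEGF-A protein, so it cannot be taken as a match in promoter sequence. The core was not in the other Vegfa window, which lies upstream on the gene's strand (chr17:46032378-46032627). It was in 16.6% of all windows. GGAAGT was also in the Kdr window, on the reverse strand from 217 bases before the start. The Tek and Nrp1 windows held none of the 5 motifs. A match or its absence describes these letters in these windows only.

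Among the VEGF ligands, Vegfc was higher in EA cells and Vegfa did not pass the test. Vegfc encodes the ligand best known for lymphatic growth. Its brightest probe set (1439766_x_at) read 11.94 and 11.78 in EA, 11.61 and 11.92 in EA with hormone, 10.96 and 11.06 in YF, and 10.54 and 10.98 in YF with hormone. Every EA array lay above every YF array. The averaged difference was 0.93 (SE 0.13, adjusted p = 0.0077), a 1.90-fold difference. The unstimulated difference was 0.85 (SE 0.18, adjusted p = 0.046) and that with hormone 1.01 (SE 0.18, adjusted p = 0.028). Both of these calls rest on all 8 arrays: the first held in 2 and the second in 1 of the 8 fits that left out an array, with adjusted p up to 0.19 and 0.14.

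A second Vegfc probe set (1419417_at) read 9.61 and 9.92 in EA, 9.58 and 9.63 in EA with hormone, 8.67 and 8.90 in YF, and 8.80 and 8.81 in YF with hormone. Its groups again did not overlap between mutants, and its averaged difference was 0.89 (SE 0.09, adjusted p = 0.0025). The difference was 0.98 without hormone (adjusted p = 0.0093) and 0.80 with it (adjusted p = 0.018, held in 4 of 8 fits without an array). The third probe set (1440739_at) read 7.92 and 8.14 in EA, 7.84 and 9.33 in EA with hormone, 6.97 and 6.99 in YF, and 6.60 and 7.13 in YF with hormone. All its EA arrays were above all its YF arrays, but EA with hormone replicate 2 stood 1.49 above replicate 1. The averaged difference of 1.38 (SE 0.35, adjusted p = 0.056) was not called, and became called without either of those arrays (1.01, adjusted p = 0.030 without replicate 2) and with only probe sets of a mean of at least 4 tested (adjusted p = 0.017).

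Vegfa encodes the central ligand of the family. Its brightest probe set (1420909_at) read 9.57 and 9.36 in EA, 9.18 and 9.16 in EA with hormone, 9.22 and 9.75 in YF, and 8.52 and 9.27 in YF with hormone. The EA and YF arrays overlapped. The averaged difference was 0.13 (SE 0.21, adjusted p = 0.76), with a 95% interval from -0.40 to 0.65 that leaves room for a change in either direction. The other Vegfa probe set (1451959_a_at) lay in the low group, at 2.50 to 2.60 on 7 arrays and 3.42 on EA replicate 2.

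Vegfb encodes a ligand of Flt1. Its probe set (1451803_a_at) read 7.96 and 8.54 in EA, 8.25 and 7.90 in EA with hormone, 6.65 and 6.56 in YF, and 8.17 and 7.33 in YF with hormone. Unstimulated YF was the low group, and YF with hormone replicate 1 reached the range of the EA arrays. Without hormone EA exceeded YF by 1.64 (SE 0.34, adjusted p = 0.041), and with hormone the difference was 0.33 (SE 0.34, adjusted p = 0.49). The averaged difference of 0.99 (SE 0.24) was called at an adjusted p of 0.0498. That call held in 1 of 8 fits without an array, where the adjusted p ran from 0.021 to 0.14, and the unstimulated call in 2 of 8 (0.022 to 0.17).

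Pgf encodes placental growth factor, another Flt1 ligand. Its probe set (1418471_at) lay in the low group at 2.65 to 3.45 over the EA arrays and 2.37 to 2.99 over the YF arrays. The averaged difference of 0.58 (SE 0.22, unadjusted p = 0.044 in limma, adjusted p = 0.18) was not called.

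Both angiopoietin ligands were higher in EA cells. The brightest Angpt1 probe set (1439066_at) read 11.18 and 10.93 in EA, 10.98 and 11.15 in EA with hormone, 9.42 and 9.82 in YF, and 9.98 and 10.02 in YF with hormone. The lowest EA array lay above the highest YF array. EA exceeded YF by 1.25 on average over treatments (SE 0.11, adjusted p = 0.0019), or 2.39-fold. It was 1.44 (SE 0.16, adjusted p = 0.0064) without hormone and 1.07 (SE 0.16, adjusted p = 0.016) with it, the latter held in 5 of 8 fits without an array. The other Angpt1 probe set (1421441_at) ranged from 2.09 to 4.68, mostly in the low group. Its replicates differed by up to 1.46, and its averaged difference of 0.80 (SE 0.44, adjusted p = 0.38) was not called.

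Angpt2 encodes the context-dependent ligand. Its brighter probe set (1448831_at) read 5.94 and 6.61 in EA, 6.25 and 5.48 in EA with hormone, 3.92 and 4.25 in YF, and 4.19 and 4.67 in YF with hormone. EA and YF arrays did not overlap, and the YF values lay close to the low-group bound. The averaged difference was 1.81 (SE 0.26, adjusted p = 0.0087), or 3.51-fold. It was 2.19 (SE 0.36, adjusted p = 0.022) without hormone, a call held in 5 of 8 fits without an array. With hormone it was 1.44 (SE 0.36, adjusted p = 0.077) and was not called, though it was called with either filter on low values (0.027 and 0.030) and with the trend and robust options of eBayes (0.019). The dimmer probe set (1459636_at) stayed at 2.64 to 2.82 on all arrays.

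The receptor kinases Flt1 and Tek were lower in EA than in YF cells, opposite in sign to the called ligands. The brightest Flt1 probe set (1451756_at) read 3.34 and 2.53 in EA, 2.88 and 4.02 in EA with hormone, 7.31 and 7.39 in YF, and 7.30 and 6.93 in YF with hormone. The EA arrays lay in or at the edge of the low group, far below every YF array. The averaged difference was -4.04 (SE 0.32, adjusted p = 0.0013), the widest of the 21 probe sets. It was -4.42 (SE 0.45, adjusted p = 0.0051) without hormone and -3.67 (SE 0.45, adjusted p = 0.0092) with it. Because both EA means lay in the low group, the size of these differences is uncertain.

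A second Flt1 probe set (1440926_at) showed the same direction. It read 2.18 and 2.52 in EA, 2.85 and 3.33 in EA with hormone, 5.61 and 5.78 in YF, and 5.07 and 5.68 in YF with hormone. Its averaged difference was -2.82 (SE 0.19, adjusted p = 0.00084), again with EA means in the low group. The remaining Flt1 probe sets lay in the low group on all arrays, 1454037_a_at at 2.61 to 3.72 and 1419300_at at 2.42 to 2.77. Their averaged differences were -0.44 (SE 0.23, adjusted p = 0.35) and -0.15 (SE 0.09, adjusted p = 0.43). Which transcript of Flt1, membrane or soluble, each probe set reads was not analysed here.

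**Figure D2:**
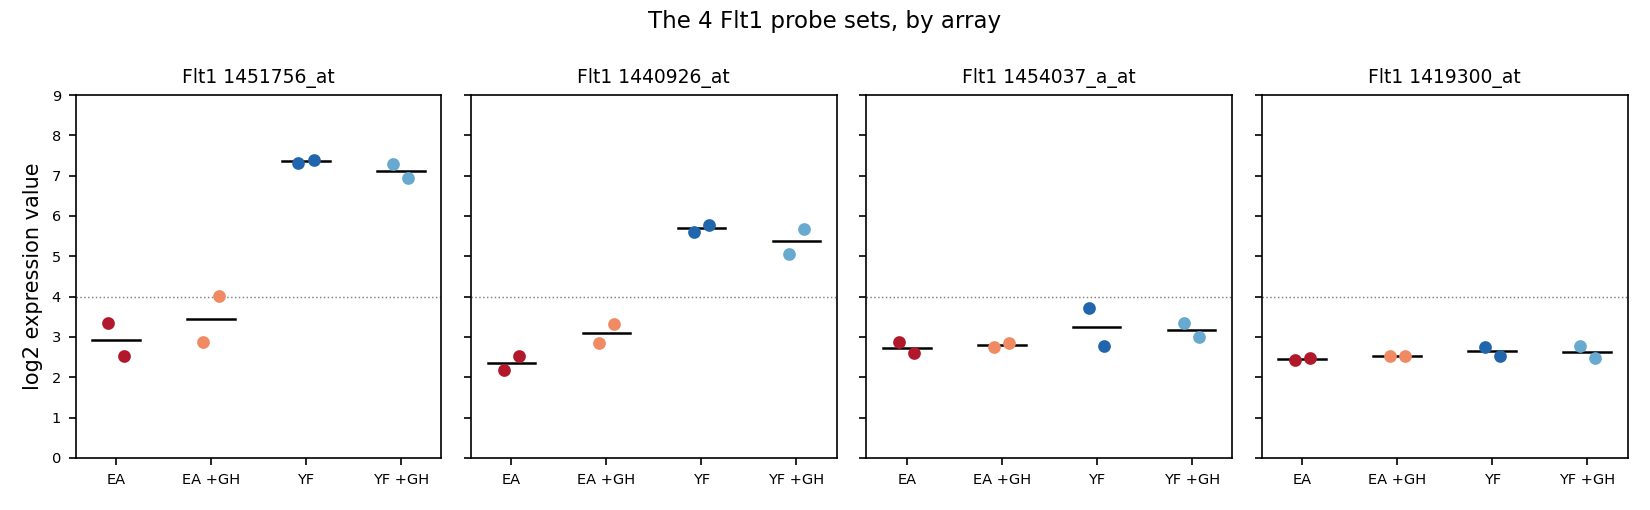
The vertical axis gives the log2 expression value of each of the 4 Flt1 probe sets and the horizontal axis the 4 groups. Points are arrays, bars are group means, and the dotted line marks 4. On 1451756_at and 1440926_at every YF array lies above every EA array, while the other probe sets stay below 4 throughout.

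Tek encodes the receptor of the angiopoietins. Its probe set (1418788_at) read 8.08 and 8.03 in EA, 8.06 and 8.27 in EA with hormone, 10.05 and 9.42 in YF, and 9.52 and 9.78 in YF with hormone. All values lay well above the low group, and the highest EA array was below the lowest YF array. Averaged over treatments, EA minus YF was -1.58 (SE 0.16, adjusted p = 0.0026), a 2.99-fold difference. It was -1.68 (SE 0.22, adjusted p = 0.011) without hormone and -1.49 (SE 0.22, adjusted p = 0.016) with it, held in 6 and 5 of the 8 fits without an array.

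Kdr (1449379_at) lay at 2.02 to 2.11 on all 8 arrays, among the low values. Its averaged difference was 0.00 (SE 0.03, adjusted p = 0.95). A value in the low group bounds what the array could show and does not establish that the mRNA was absent.

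Nrp1, the co-receptor, was higher in EA cells on 3 of its 4 probe sets. The first (1448944_at) read 13.53 and 13.44 in EA, 13.28 and 13.25 in EA with hormone, 12.72 and 12.71 in YF, and 12.87 and 12.72 in YF with hormone. The groups did not overlap between mutants. The averaged difference was 0.62 (SE 0.04, adjusted p = 0.00092), or 1.54-fold. It was 0.78 (SE 0.06, adjusted p = 0.0026) without hormone and 0.47 (SE 0.06, adjusted p = 0.011) with it, the latter held in 6 of 8 fits without an array. With only the compared groups the latter call was lost (adjusted p = 0.073).

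The second Nrp1 probe set (1448943_at) read 13.44 and 13.20 in EA, 13.17 and 13.35 in EA with hormone, 12.96 and 12.91 in YF, and 12.38 and 12.61 in YF with hormone. The third (1418084_at) read 12.20 and 12.21 in EA, 11.84 and 11.73 in EA with hormone, 11.14 and 11.02 in YF, and 11.69 and 11.40 in YF with hormone. On both, every EA array lay above every YF array. Their averaged differences were close, 0.57 (SE 0.09, adjusted p = 0.010) and 0.68 (SE 0.07, adjusted p = 0.0037). 1448943_at gave 0.39 without hormone (adjusted p = 0.14) and 0.76 with it (adjusted p = 0.020), while 1418084_at gave 1.12 without hormone (adjusted p = 0.0041) and 0.24 with it (adjusted p = 0.26). The call of 1448943_at with hormone held in 5 of 8 fits without an array, with adjusted p up to 0.11, and was lost with only the compared groups (0.069), while its unstimulated difference was called with the trend and robust options (0.043). The dimmest (1457198_at) lay at 4.16 to 4.99 with an averaged difference of 0.28 (SE 0.13, adjusted p = 0.27).

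**Figure D3:**
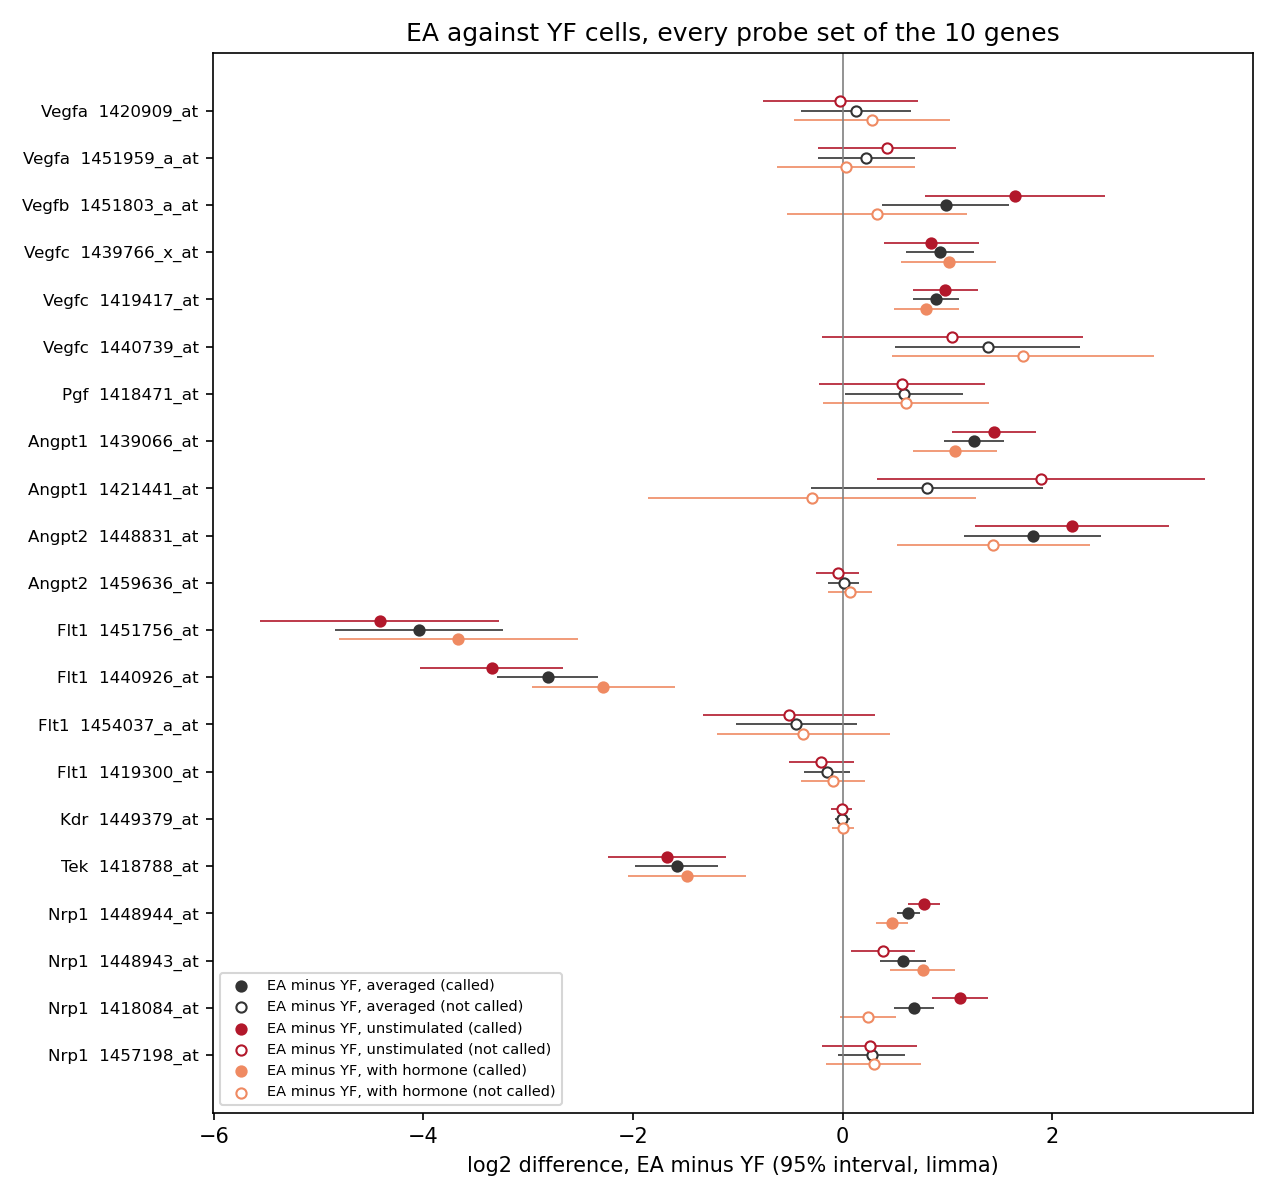
Each row is 1 of the 21 probe sets and the horizontal axis is the log2 difference, EA minus YF, with its 95% interval. Colours separate the averaged, unstimulated and hormone-treated comparisons, and filled points were called. Flt1 and Tek lie left of 0, from -4.42 to -1.49 for the called points, and the called Vegfb, Vegfc, Angpt1, Angpt2 and Nrp1 points lie right of it.

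Without hormone, 10 of the 21 probe sets were called, against 10.8% of all probe sets, 7 of them higher (5.51% of all) and 3 lower in EA (5.25% of all). With hormone, 8 were called, against 10.2% of all probe sets, 5 of them higher (4.37% of all) and 3 lower (5.8% of all). Fitted on the arrays of the compared groups alone, the counts were 6 and 5. With hormone the count was 10 under either filter on low values and under the trend and robust options. The first count was 6 without EA replicate 2, and the second was 3 and 2 without EA with hormone replicates 1 and 2 and 4 without YF with hormone replicate 1. Vegfb and Angpt2 were called without hormone and not with it in the fit of all probe sets, but this does not show that their differences changed, as the test of that change was not passed for either (adjusted p = 0.45 for both).

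Growth hormone gave no called change in any of the 21 probe sets. In EA cells 0 were called, against 0.135% of all probe sets, with 3 at an unadjusted limma p under 0.05 (5.62% of all probe sets were). In YF cells 0 were called, against 0.18% of all, with 3 at an unadjusted p under 0.05 (11.4% of all). Averaged over the mutants 0 were called, against 0.211% of all, with 1 at an unadjusted p under 0.05 (7.85% of all). The difference of the responses, EA minus YF, was called for 0 of 21 against 0.02% of all, with 4 at an unadjusted p under 0.05 (9.74% of all).

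Vegfb had the largest change with hormone in YF cells, 1.15 (SE 0.34, adjusted p = 0.33, 95% interval 0.29 to 2.0). It was 0.72 without YF with hormone replicate 1 and 1.57 without replicate 2. In EA cells the Vegfb change was -0.17 (SE 0.34, adjusted p = 0.89), and the responses differed by -1.32 (SE 0.48, adjusted p = 0.45). Flt1 on 1440926_at gave 0.74 in EA cells (SE 0.27, adjusted p = 0.81) from one value in the low group to another, and -0.32 in YF cells (SE 0.27, adjusted p = 0.55). Vegfa gave -0.29 in EA cells and -0.59 in YF cells (SE 0.29 for each, adjusted p = 0.87 and 0.51).

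The Nrp1 probe sets did not give a common hormone response. 1418084_at gave -0.41 in EA cells (SE 0.11, adjusted p = 0.51) and 0.46 in YF cells (SE 0.11, adjusted p = 0.24), a difference of -0.88 (SE 0.15, adjusted p = 0.25). 1448943_at gave -0.06 and -0.44, a difference of 0.38 (SE 0.17, adjusted p = 0.45). 1448944_at gave -0.22 and 0.08, a difference of -0.30 (SE 0.09, adjusted p = 0.44). The first and second of these thus moved in opposite directions in YF cells, where neither passed the test. The bright Angpt1 probe set gave 0.01 in EA cells and 0.38 in YF cells, and Tek 0.11 and -0.08. The dim Angpt1 probe set (1421441_at) gave -1.09 and 1.09 (SE 0.62 for each, adjusted p = 0.87 and 0.54) at values mostly in the low group.

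**Figure D4:**
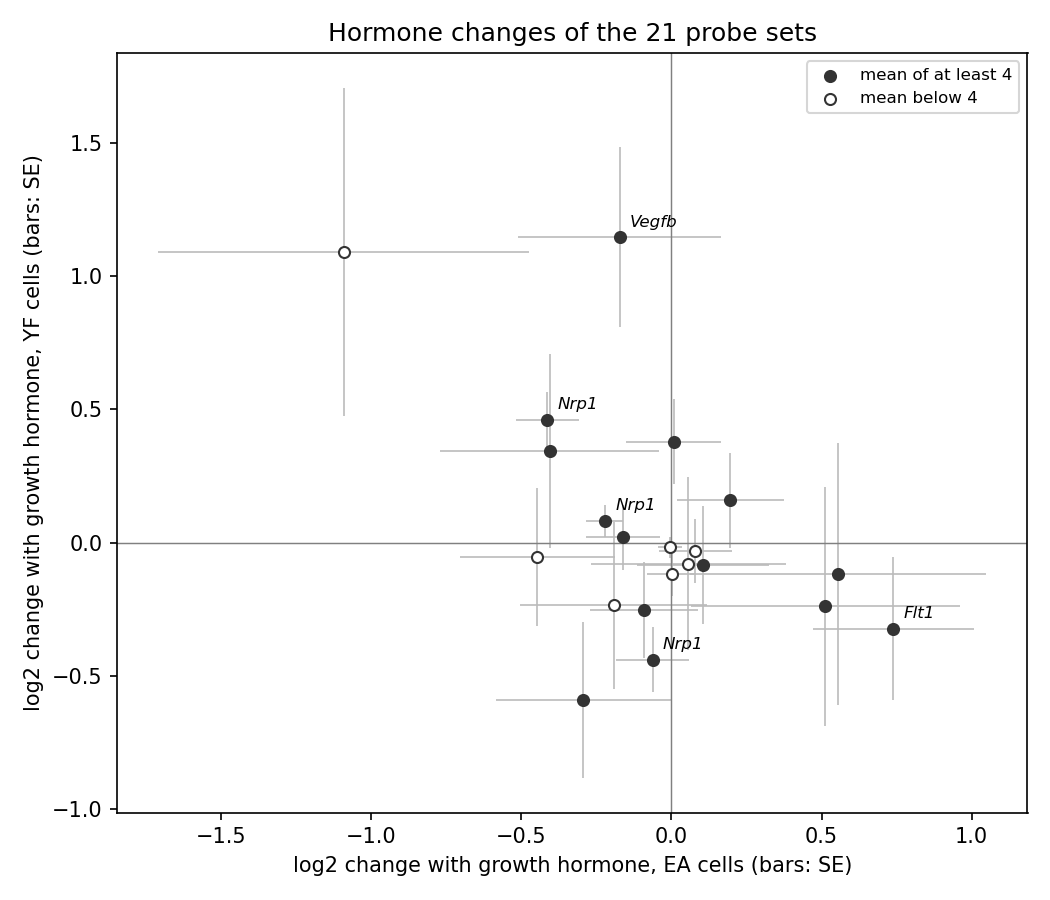
The horizontal axis gives the log2 change with growth hormone in EA cells and the vertical axis that in YF cells, with SE bars, for the 21 probe sets. Open points have a mean below 4, and none was called on either axis. Labels mark the probe sets with an unadjusted p under 0.05 on either axis. Vegfb stands highest, at 1.15 in YF cells, and the Nrp1 points at 0.46 and -0.44 lie on opposite sides of 0 there.

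Other genes of the pathway moved in both directions. For the counts of list genes that follow, 22.9% of all genes were called in the comparison averaged over treatments by their brightest probe set. Of 8 further receptors, co-receptors and ligands, 3 were lower and 1 higher in EA cells, with a median difference of -0.06. Flt4, the receptor for VEGF-C, read 5.42 and 5.71 in EA, 5.57 and 5.24 in EA with hormone, 8.06 and 8.10 in YF, and 7.85 and 7.50 in YF with hormone. Its averaged difference was -2.39 (SE 0.12, adjusted p = 0.00037), and -2.32 (SE 0.35, adjusted p = 0.010) on its other probe set. Flt4 thus lay lower in the cells where its ligand Vegfc lay higher.

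The second neuropilin, Nrp2, went the other way from Nrp1. It ranged from 11.98 to 12.15 over the 4 EA arrays and from 12.92 to 12.96 over the 4 YF arrays. Its averaged difference was -0.87 (SE 0.05, adjusted p = 0.00068). It was also lower on 2 further probe sets (-1.21, SE 0.10, and -1.54, SE 0.08) and gave -0.06 on another in the low group.

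Plxnd1, a semaphorin receptor of vessels, was higher in EA (1.82, SE 0.13, adjusted p = 0.0010), with YF means in the low group. Svep1, an extracellular matrix protein that binds angiopoietin, was lower (-0.55, SE 0.05, adjusted p = 0.0021). Vegfd, a second Flt4 ligand, lay at 12.63 to 12.82 on all arrays with a difference of -0.01 (SE 0.06, adjusted p = 0.96). Angpt4 gave 0.43 (SE 0.20, adjusted p = 0.29). Tie1, the partner receptor of Tek, and Ptprb, a phosphatase that acts on Tek, lay in the low group at 1.80 to 1.87 and 2.12 to 2.40. Of these 8 genes, 0 were called with hormone in either mutant.

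**Figure D5:**
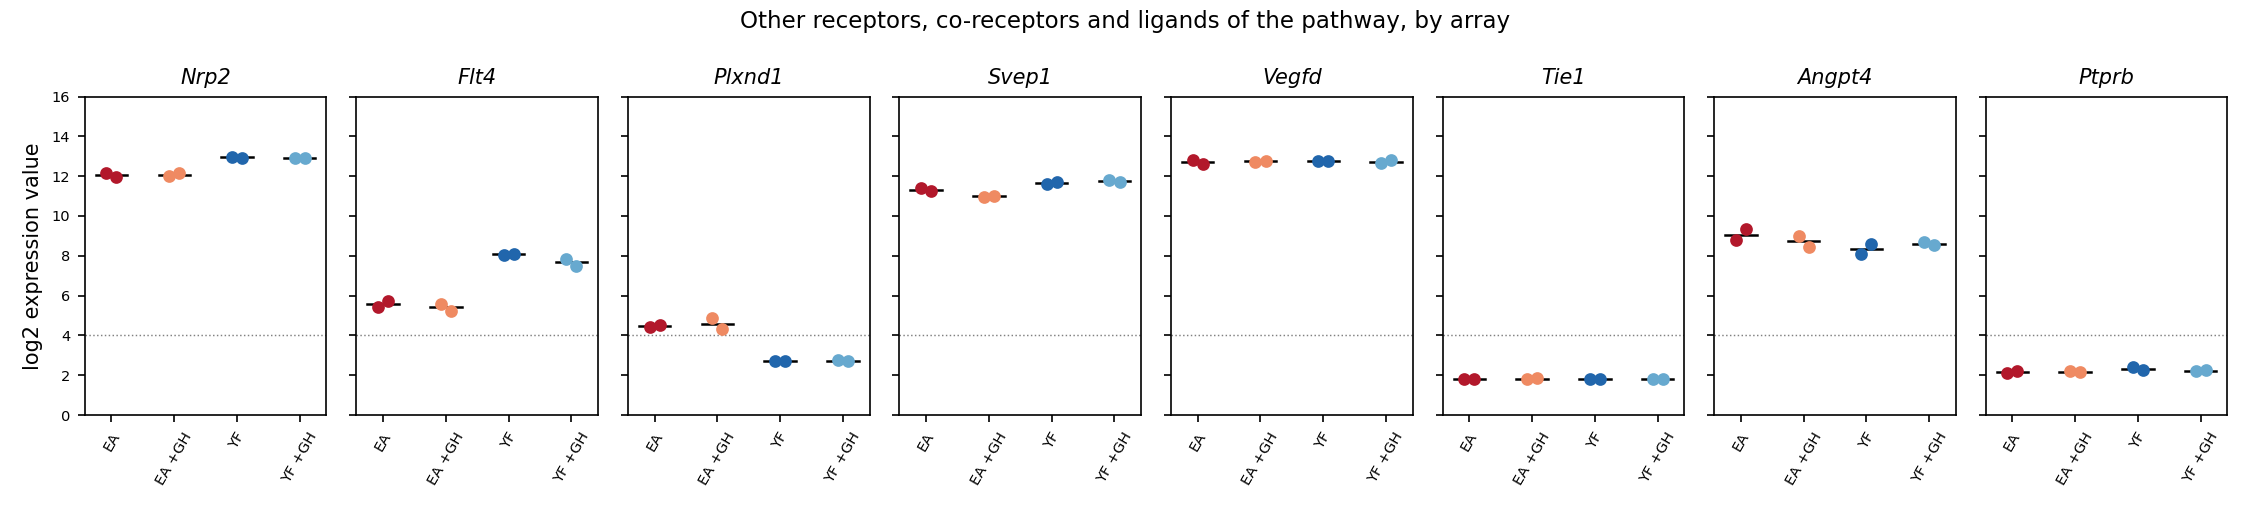
The vertical axis gives the log2 expression value of the brightest probe set of 8 further pathway genes and the horizontal axis the 4 groups. Points are arrays, bars are group means, and the dotted line marks 4. Nrp2, Flt4 and Svep1 are higher in YF cells, Plxnd1 is higher in EA cells, and Vegfd stays between 12.63 and 12.82.

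Among 12 semaphorins and plexin partners of the neuropilins, 3 were higher and 2 lower in EA cells, with a median of 0.04. Sema3b, a neuropilin ligand, was higher by 1.95 (SE 0.09, adjusted p = 0.00025) and the co-receptor Plxna2 by 1.41 (SE 0.06, adjusted p = 0.00024). Sema3e, the Plxnd1 ligand, was lower (-1.96, SE 0.17, adjusted p = 0.0019), and Plxna3 (0.44) and Sema3c (-0.60) were also called. Of 11 measured genes for signalling below the receptors, Grb14 (1.16, SE 0.07) and Prkca (0.78, SE 0.04) were higher and Plcg1 (-0.16, SE 0.03) lower, with a median of 0.02. That is 3 of 11 genes, near the 22.9% of all genes.

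Of 18 hypoxia target genes, a class that includes Vegfa, 3 were higher and 7 lower in EA, with a median of -0.10. Aldoc (-1.45, SE 0.15) and Pfkfb3 (-1.17, SE 0.06), genes of glycolysis, were lower, as was Egln3, a prolyl hydroxylase (-1.02, SE 0.23), and Kdm3a, a histone demethylase, was higher (1.06, SE 0.12). Epas1, which encodes a hypoxia-inducible factor subunit, was lower (-3.40, SE 0.15, adjusted p = 0.00025), at 3.78 to 4.82 over EA arrays and 7.24 to 7.83 over YF arrays. Its second probe set lay in the low group and gave 0.01. Hif1a, the related subunit, gave 0.24 (SE 0.12, adjusted p = 0.35).

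Of 21 measured other secreted regulators of angiogenesis, 3 were higher and 7 lower in EA, with a median of -0.09. Hgf was higher by 2.25 (SE 0.29, adjusted p = 0.0066), with YF means in the low group. Pdgfb was lower (-2.16, SE 0.09, adjusted p = 0.00021), with EA means in the low group. Thbs2, an inhibitor of angiogenesis, was lower (-1.29, SE 0.11, adjusted p = 0.0016), as was Ccn2, a matrix-associated growth regulator (-1.19, SE 0.09, adjusted p = 0.0011). No gene of these lists was called with hormone in EA or YF cells, and the nearest was Pdgfb in YF cells (1.33, SE 0.13, adjusted p = 0.054).

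Flt1 on 1451756_at had the widest range of group means of the brightest probe sets. Over the 8 arrays, among 18261 probe sets with a mean of at least 4 and 1 symbol, the genes with the smallest root mean square difference from its centred values were Igf1 (0.28), Rbpms (0.28) and Cyria (0.34). Igf1 had group means of 2.96 in EA, 3.47 in EA with hormone, 7.61 in YF and 7.45 in YF with hormone. All 3 genes lay lower in the EA groups, as Flt1 did, and likeness over these 8 arrays says nothing of other samples.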

How the data were processed

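Total RNA of 8 mouse fibroblast samples was labelled with biotin and read on Affymetrix arrays, per the labels' protocols. The authors' deposited values are on the log2 scale, 1 per probe set and array. The submitters' processing notes name GCOS (scanner software) as well as RMA, a summary of probes across arrays. For neither is a version or setting given in the sources used here. Array medians were 2.85 to 2.94, and no further normalization was applied. The number of arrays limits the precision.

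Of 45101 probe sets, 64 controls were left out and 45037 tested. Of these, 34945 carried 1 symbol, 932 several and 9160 none in the platform annotation. Probe sets with several symbols named no gene. RefSeq (GRCm38.p6) matched 34741 of the single symbols and changed 0.

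Differences were fitted with limma 3.58.1 (R 4.3.3) by lmFit and eBayes over 4 group means of all 8 arrays, with 4 residual and 1.26 prior degrees of freedom and 7 two-sided contrasts. Benjamini-Hochberg adjustment covered all 45037 probe sets. The code was tested on simulated data. A list gene is represented by its brightest probe set. The members and the lists were chosen with earlier results of these data known. Named from other lists were called members, at most 4 per comparison by size, and Nrp2, Flt4, Tie1, Hif1a and Epas1 always. Uncalled genes of the 8-gene list, Plxna3, Postn, Ghr, Stat5a, Eng, Egfl7, Csf1r, Cd14 and Pdgfb with hormone were added after their values were seen. The markers Pecam1, Cdh5, Ptprc, Adgre1, Epcam, Cdh1, Col1a2, Col3a1, Vim and Fn1 were also named outside this rule. Ptk2, Vash1 and Fbn1 were not analysed here. Alternatives were centring, quantile normalization, filters, another variance model, fewer arrays, a replicate block and leaving out each array.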

Additional observations from a re-analysis of the deposited data

How the results depend on the processing

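No direction of a called value reversed under any alternative run, and apart from Vegfb every averaged EA against YF call was kept in all 8 fits without an array and in 6 other fits. The Vegfb averaged call was lost with centring (adjusted p = 0.073), quantile normalization (0.054) and the replicate block (0.079). The unstimulated Vegfb call was lost with the same 3 (0.059, 0.052 and 0.070) and with only the groups compared (0.057). The unstimulated call of Vegfc 1439766_x_at was lost with quantile normalization (0.081) and the block (0.051). With only the groups compared, the unstimulated calls of Angpt1 1439066_at (0.0501), Angpt2 1448831_at (0.053), Tek (0.061) and Vegfc 1419417_at (0.067) were also lost. Vegfc 1440739_at became called there (0.027). The calls with hormone lost in that way were Nrp1 1448944_at (0.073), Nrp1 1448943_at (0.069) and Vegfc 1439766_x_at (0.115). The averaged count of 11 was 10 to 11 without an array and 7 over the brightest probe set per gene, which counts fewer probe sets. The unstimulated count of 10 was 6 with only the groups compared and 6 to 10 without an array, lowest without EA replicate 2. The count of 8 with hormone was 5 with only the groups compared, 5 over the brightest probe sets and 2 to 7 without an array: 3 and 2 without EA with hormone replicates 1 and 2, and 4 without YF with hormone replicate 1. Both filters on low values and the trend and robust options raised it to 10, by Angpt2 1448831_at (adjusted p = 0.019 to 0.030) and Vegfc 1440739_at (0.038 to 0.047), and raised the averaged count to 12. The hormone count in EA cells was 0 to 1 without an array, the 1 being Vegfa 1451959_a_at in the low group without EA replicate 1 (-0.86, adjusted p = 0.049), and the other hormone counts stayed at 0. Over all probe sets, leaving out an array gave 2488 to 5170 calls without hormone (4847 with all arrays), 2372 to 4939 with it (4579), 9 to 80 for hormone in EA cells (61) and 8 to 675 in YF cells (81). Fewer arrays leave fewer degrees of freedom. The cause was not tested otherwise. Same-numbered deviations correlated from -0.30 to 0.37 between groups, which does not decide whether the replicate numbers pair the arrays. The correlations with unstimulated EA were -0.21, -0.06 and -0.30, and those among the other groups 0.00, 0.37 and 0.12. With the replicate block the counts were 11, 8 and 8, and with the numbers of the unstimulated EA arrays crossed, an alternative chosen after seeing the data, 11, 10 and 8. Small differences in the low group were not resolvable without detection calls.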
